A study of Mus musculus with 7 samples.

Results

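Potassium channel genes and the HCN genes were followed in sensory neurons of mouse embryos that carry the Runx3-P2 allele on one or on both chromosomes. The members were all rows of the deposited count table whose symbol starts with Kcn or is that of an HCN channel gene, and whose raw counts summed to at least 20 over the 7 libraries. Of 99 such symbols, 64 met that minimum, out of 29777 rows in the table. A further 17 symbols had 0 counts in every library and 18 had between 1 and 19. Kcnc4, with 23 counts, lay just inside the minimum, and Kcnmb1 and Kcnn4, with 19 each, lay just outside it. Of the 64 members, 62 encode channel subunits. The other 2 are Kcnq1ot1, a long non-coding RNA made from the opposite strand of the Kcnq1 locus, and Kcnrg, a putative regulator of potassium channels.

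Potassium channels let potassium leave the cell, which sets the resting membrane potential and ends the action potential. The voltage-gated pore families (Kv) open on depolarisation, inward rectifiers and tandem-pore channels act near rest, and calcium-activated channels couple firing to calcium entry. HCN channels open on hyperpolarisation and pass a depolarising cation current. In sensory neurons of the dorsal root ganglion these genes set firing threshold, spike width and the pattern of repetitive firing.

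GFP-positive cells from freshly isolated cervical dorsal root ganglia at embryonic day 11.5 were collected by sorting, and their RNA was amplified as cDNA and sequenced. The 3 heterozygote libraries (Runx3-P2+/-) and 4 homozygote libraries (Runx3-P2-/-, KO in the source names, where the heterozygotes are WT) came from ICR mice. Every library carries the GFP-bearing allele, on one copy of the locus in heterozygotes and on both in homozygotes, so no library is wild type. The labels call the cells TrkC neurons, the precursors of proprioceptors, and the design text speaks of pools. Whether libraries came from separate litters is not stated, so p-values reflect only how these libraries varied, which may be technical.

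Libraries held 11184237 to 13986835 counts. The targeted gene Runx3 was at 67.2, 94.1 and 94.5 CPM (the CPM unit scales counts to library size, here after TMM normalisation) in heterozygotes against 6.56, 11.5, 6.49 and 12.1 CPM in homozygotes, lower in every homozygote library (log2 fold change -3.22 ± 0.30, SE; adjusted p = 0.00593, edgeR). Ntrk3, which encodes TrkC, was detected in all 7 libraries, at 54.9 to 236 CPM. The summed level of 10 sensory neuron markers was 19180 to 22360 CPM in heterozygotes against 11240 to 19870 CPM in homozygotes, lowest in homozygote library 3. All 10, Runx3 included, had a negative log2 fold change, with a median of -0.37. Of 16 leukocyte markers listed, 15 were in the table and all 15 had a positive log2 fold change. edgeR called 0, DESeq2 called 11, and in 14 the unadjusted p (edgeR) was below 0.05. Their summed level was 291 to 344 CPM in heterozygotes against 675 to 4090 CPM in homozygotes, without overlap and highest in homozygote library 3. Coro1a alone was at 208, 226 and 283 CPM in the heterozygotes, most of their sums, and at 247 to 621 CPM in the homozygotes. No leukocyte marker in the table was at 0 in all heterozygotes. In heterozygote library 3, though, Cx3cr1, C1qc and Lyz2 had 0 counts and Ptprc had 1, while Cd68 had 26 and Itgam 16. Spinal cord markers summed to 17.9 to 50.5 CPM in the heterozygotes, where Olig2, Nkx6-1 and Evx1 were at 0, and to 38.9 to 121 CPM in the homozygotes. Foxp2 alone was at 42.02, 23.8 and 17.82 CPM in the heterozygotes, most of their sums, and at 30.02 to 59.14 CPM in the homozygotes. Of 8 spinal cord markers tested, 7 had a positive log2 fold change, with a median of 1.60 over the 8. edgeR and DESeq2 called 0 of them, and 1 was higher at an unadjusted p below 0.05 (edgeR). In RNA from sorted populations, fewer cells of a type and less RNA per cell cannot be told apart.

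No channel gene passed the test over all genes. Most had lower values in the homozygotes: 37 of the 52 members tested had a negative log2 fold change, against 51.7% of all 14040 genes tested, and 15 had a positive one, against 48.3%. The 10 sensory neuron markers were all negative too, so this direction was not particular to channel genes. The lowest p belonged to Kcnh6, an ERG-type potassium channel, where the genotypes did not overlap. A gene was called at a Benjamini-Hochberg adjusted p below 0.05 from edgeR's quasi-likelihood test, with heterozygotes as the reference. By that rule edgeR called 0 of the 52 members, where it called 0.0499% of all genes. The smallest adjusted p of a member was 0.12 (edgeR). At an unadjusted p below 0.05 there were 9 lower members, against 4.88% of all genes, and 1 higher member, against 7.75% of all genes. In other settings the count of 9 lower members changed, given here with the share of all genes lower in that setting. It was 1 of 52 with the leukocyte marker mean as a covariate (1.98%) and 2 of 54 without both libraries numbered 3 (3.05%). Without heterozygote library 3 it was 2 of 61 (3.21%), and without heterozygote library 2 it was 5 of 58 (3.85%). Without homozygote library 3 it was 6 of 50 (4.03%). The leukocyte marker mean did not overlap between genotypes, so that fit cannot separate it from genotype. Each source name holds its own date, of what step is not said, and the labels name no batch. With the date as a covariate the count was 10 of 52 (5.4%). In a window of close dates, which left out homozygote libraries 1 and 3, it was 4 of 52 (4.38%). The remaining settings gave 7 to 14 lower members, of 39 to 64 tested, where the share of all genes was 4.02% to 6.06%. The title of heterozygote library 1 gives another month than its source name, which was used. DESeq2 on the same genes called 2 members, Kcnh6 lower and Kcnj10 higher. Its background was 4.76% of all genes, with 1.31% called lower and 3.45% called higher. limma-voom called 0 members, against 0.0427% of all genes. At an unadjusted p below 0.05 it gave 14 lower members, against 5.96% of all genes, and 0 higher, for which the share of all genes is not given here. In the authors' deposited table, an adjusted p below 0.05 was given to 1 member, Kcnh6, where it was given to 4.35% of all genes tested, and 20 members had no adjusted p.

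Without overlap between genotypes, 9 of the 52 tested members were lower in the homozygotes and 0 were higher. The background was 5.78% of all genes lower and 6.6% higher. Among the lower ones were Kcnh6, Kcnc1, Kcnip1, Kcnip2, Kcnu1, Kcna2 and Kcnk3. The median log2 fold change of the members tested was -0.41, beside -0.0177 over all genes tested and -0.37 over the 10 sensory neuron markers. The other 12 members had counts too low or too uneven for edgeR's filter (filterByExpr) and were not tested.

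**Figure D1:**
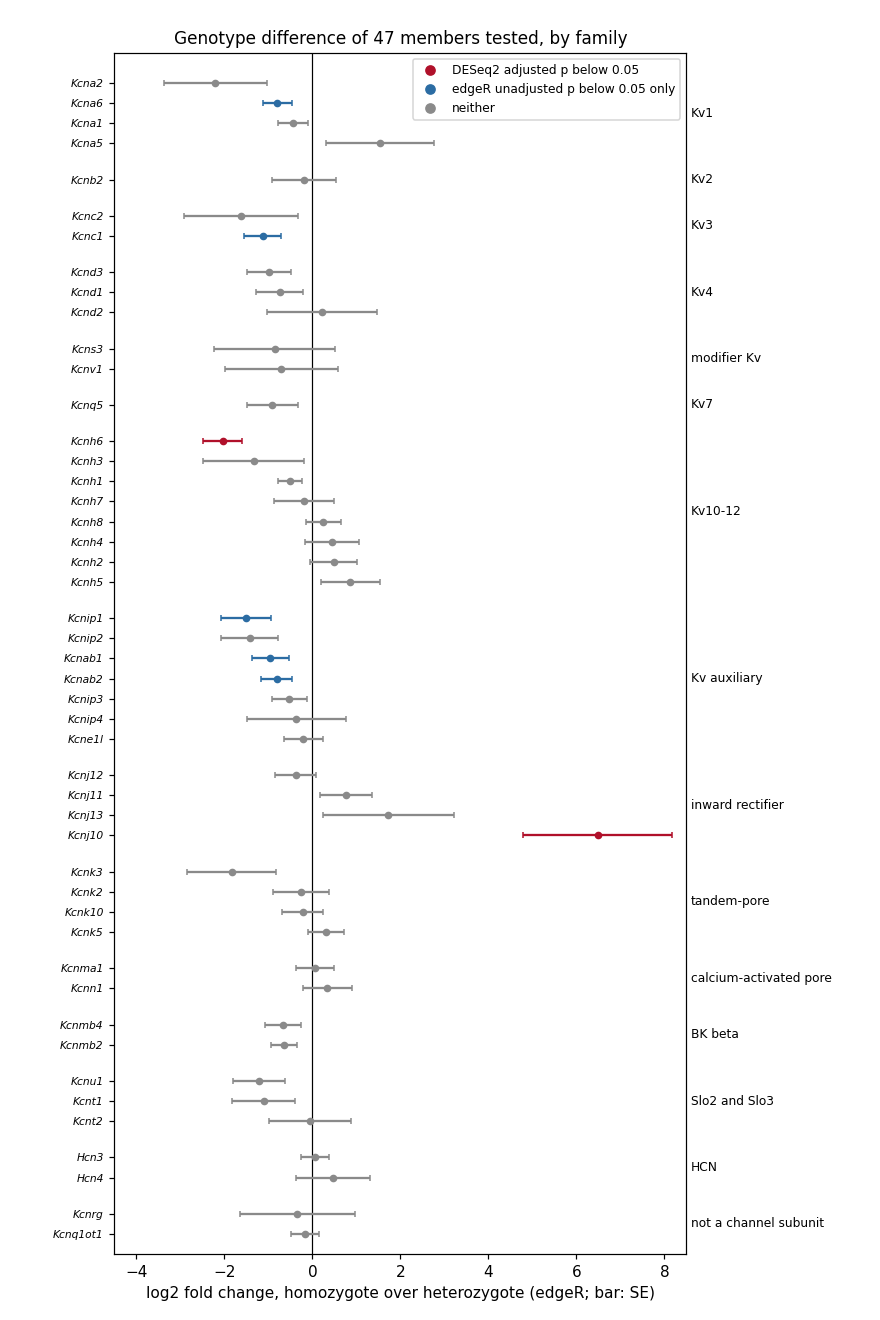
Log2 fold change (homozygote over heterozygote, edgeR, bars are SE) of 47 of the members that passed the count filter, grouped by channel family. Red points are the 2 genes called by DESeq2, blue points have an unadjusted edgeR p below 0.05 only, and 33 of the 47 points lie left of 0.

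Kcnh6 encodes a pore subunit of the ether-a-go-go-related (ERG) potassium channels, which carry a slowly deactivating current that limits repetitive firing. It was at 10.6, 19.4 and 22.3 CPM in heterozygotes against 2.92, 3.03, 4.25 and 6.78 CPM in homozygotes. All 4 homozygote libraries lay below the lowest heterozygote library. The raw counts were 136, 224 and 257 against 40, 39, 53 and 80. The means were 17.4 ± 6.11 CPM (SD, n = 3) and 4.24 ± 1.80 CPM (SD, n = 4), which is -2.04 ± 0.44 (SE) as a log2 fold change. It missed edgeR's threshold (adjusted p = 0.12) and passed DESeq2's (adjusted p = 0.00251). The authors' deposited table gives Kcnh6 a log2 fold change of -1.77 and an adjusted p of 0.00106. Over the other settings of the analysis the log2 fold change ran from -2.35 to -1.76, and DESeq2 was the single setting that called it. With the leukocyte marker mean as a covariate the log2 fold change was -1.76.

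**Figure D2:**
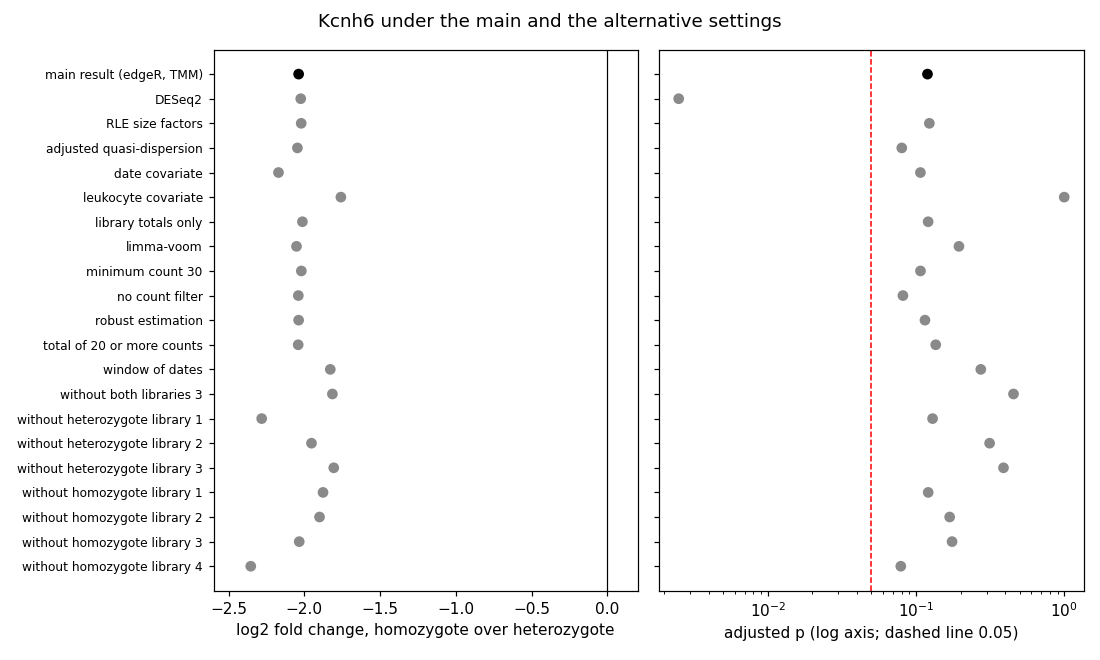
Log2 fold change (left) and adjusted p (right, log axis) of Kcnh6 under the main analysis (black) and 20 alternative settings (grey). Every fold change lies between -2.35 and -1.76, and the DESeq2 point alone is left of the dashed line at 0.05.

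The stretch before the start of Kcnh6 is shown because this gene had the lowest p of the family in a comparison of Runx3 genotypes. Runx proteins bind a motif whose core is TGTGGT. The window is the 250 bases upstream of the annotated RefSeq start, chr11:106007898-106008147 on the plus strand of GRCm38.p6, a later build than the one named for the files. It holds no TGTGGT on either strand, so no base is in capitals.
Kcnh6: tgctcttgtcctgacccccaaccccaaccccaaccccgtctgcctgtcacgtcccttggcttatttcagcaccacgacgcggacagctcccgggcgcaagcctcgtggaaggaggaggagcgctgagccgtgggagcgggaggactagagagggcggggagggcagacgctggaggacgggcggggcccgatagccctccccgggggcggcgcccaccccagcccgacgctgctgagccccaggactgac

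Of the 64 members, 46 had an entry in the RefSeq promoter table and 5 of these (10.9%) held TGTGGT on either strand in the 250 upstream bases. Among all 27018 genes of that table, 15.9% held it. The 5 sites are shown with up to 12 bases on either side, the motif in capitals and the strand of the gene throughout. ACCACA is the same motif on the opposite strand.
Kcnc4, chr3:107459095-107459124, minus strand: aaccacctgtgcACCACAgaaagccaactc
Kcnf1, chr12:17176954-17176983, minus strand: gctgggacaagtTGTGGTacaaggtcacac
Kcnj3, chr2:55435883-55435912, plus strand: aggcggggctagTGTGGTtctgcagctgat
Kcnj5, chr9:32344480-32344509, minus strand: gctgcctttcttTGTGGTtctcctttgcct
Kcnt2, chr1:140245482-140245511, plus strand: aagcagaaggcgACCACAgccttgggtgct

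Of these 5 genes, only Kcnt2, a sodium-activated channel, passed the count filter, and its log2 change was -0.0509 ± 0.93 (SE; adjusted p = 0.991, edgeR). Kcnc4, a Kv3 pore gene, had 8, 5 and 10 counts in the heterozygotes and 0 in every homozygote library. Set against a floor of 3 counts over the homozygote group, its pooled level was at least 10.9-fold lower there. Kcnj3 (GIRK1), a G-protein-gated rectifier, had 26, 62 and 1 counts against 10, 9, 0 and 0. Those groups overlapped, since heterozygote library 3 lay below 2 homozygote libraries. Kcnf1, a Kv subunit that is silent on its own, had 0 counts in all heterozygotes and 22, 0, 24 and 1 in the homozygotes. Kcnj5 (GIRK4) likewise had 0 in all heterozygotes and 45, 0, 130 and 0 in the homozygotes. Against a floor of 3 counts over the heterozygote group, the pooled level of Kcnf1 was at least 11.1-fold and of Kcnj5 at least 41.2-fold higher. Those counts came almost wholly from homozygote libraries 1 and 3, so neither ratio describes the homozygote libraries as a group. Kcnc4, Kcnf1 and Kcnj5 each met the count minimum for members through a single genotype. Part of each ratio was therefore set by that selection.

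Among the other ERG and EAG family genes the values did not move as a block. Of 8 tested members of the Kcnh group, 4 had negative and 4 positive log2 fold changes, with a median of 0.0253. Kcnh1 (EAG1), a voltage-gated pore subunit, was at 33.2, 37.0 and 31.6 CPM in heterozygotes against 18.7, 20.1, 21.95 and 34.2 CPM in homozygotes. Homozygote library 4 lay among the heterozygotes and the other 3 below them (log2 fold change -0.52 ± 0.27, SE; adjusted p = 0.497, edgeR). Kcnh2 (ERG1), the ERG subunit also known from heart muscle, averaged 2.85 ± 0.833 CPM (SD, n = 3) and 3.99 ± 0.747 CPM (SD, n = 4). On the log2 scale its change was 0.48 ± 0.54 (SE; adjusted p = 0.804, edgeR). The difference between the changes of Kcnh2 and Kcnh6 was not tested. Kcnh5 (EAG2) was at 0.86 ± 0.68 and Kcnh8 (ELK1) at 0.25 ± 0.40 on the log2 fold change scale (SE). Kcnh3, Kcnh4 and Kcnh7 had adjusted p from 0.716 to 0.951 (edgeR).

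Kv1 subunits form low-threshold channels that brake repetitive firing, and beta subunits from the Kcnab genes bind their cytoplasmic face. Kcna1 (Kv1.1), the most counted pore gene, was at 78.6, 99.6 and 110 CPM in heterozygotes against 50.5, 109, 35.3 and 88.2 CPM in homozygotes. Homozygote libraries 2 and 4 lay within the heterozygote range (log2 fold change -0.44 ± 0.35, SE; adjusted p = 0.683, edgeR). Kcna6 (Kv1.6) was at 55.0, 82.6 and 89.1 CPM against 46.7, 39.3, 22.3 and 65.0 CPM. Homozygote library 4 alone reached the heterozygote range (log2 fold change -0.80 ± 0.33, SE; unadjusted p = 0.0359, adjusted p = 0.351, edgeR). Kcna2 (Kv1.2) had 18, 33 and 20 counts in heterozygotes against 0, 1, 13 and 7 in homozygotes, without overlap in CPM (adjusted p = 0.502, edgeR). Kcna5 (Kv1.5) went the other way, with 25, 6 and 34 counts against 107, 127, 0 and 40. Its homozygote values lay on both sides of the heterozygotes, and the log2 fold change of 1.54 ± 1.23 (SE) had an adjusted p of 0.69 (edgeR). Kcna5, Kcna1 and Kcna6 are direct neighbours in the RefSeq gene order of GRCm38.p6.

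Kcnab2 was at 72.7, 85.1 and 118 CPM in heterozygotes against 59.2, 32.3, 33.0 and 84.1 CPM in homozygotes. Kcnab1 was at 69.8, 44.1 and 101 CPM against 18.1, 51.7, 23.7 and 54.2 CPM. Homozygote library 4 lay within the heterozygote range in both genes, and homozygote library 2 did so for Kcnab1. The log2 fold changes were -0.82 ± 0.34 for Kcnab2 and -0.96 ± 0.42 for Kcnab1 (SE; adjusted p = 0.362 and 0.379, edgeR). The third beta gene, Kcnab3, was untested, with 77 of its 141 counts in heterozygote library 2.

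Genes that bind Kv4 and other Kv pores belong with these. All 7 tested members of the Kv auxiliary group, Kcnab1, Kcnab2, Kcne1l and the 4 Kcnip genes, had a negative log2 fold change, with a median of -0.82. Negative values were also found in 37 of the 52 members tested and in 51.7% of all genes tested. Kcnip1, a calcium-binding partner of Kv4 channels, was at 11.8, 14.7 and 18.8 CPM in heterozygotes against 7.80, 8.94, 2.80 and 1.61 CPM in homozygotes. The groups did not overlap (log2 fold change -1.51 ± 0.57, SE; unadjusted p = 0.0245, adjusted p = 0.298, edgeR). Kcnip2 was at 6.003, 4.93 and 7.48 CPM against 4.01, 2.02, 2.48 and 0.593 CPM, again without overlap (adjusted p = 0.404, edgeR). Kcnip3, also known as calsenilin, and Kcnip4 had log2 fold changes of -0.53 ± 0.40 and -0.36 ± 1.12 (SE). Kcne1l, now Kcne5, was at -0.20 ± 0.44 (SE). Kcne3 was not tested. It had 1 count over the heterozygote libraries, against 21, 10, 41 and 0 in homozygotes. The pooled homozygote level was 50.8 times the heterozygote level (exact 95% interval 8.84 to 2035, covering counting error only). Kcne3 met the count minimum for members through the homozygotes, so part of this ratio was set by that selection.

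The Kv4 pores themselves, which carry the fast transient A-type current, did not pass. Kcnd1 (Kv4.1) averaged 31.0 ± 16.6 CPM (SD, n = 3) and 18.5 ± 9.88 CPM (SD, n = 4), with overlap. Kcnd3 (Kv4.3) averaged 9.26 ± 3.03 CPM and 4.67 ± 2.19 CPM, with homozygote library 4 just inside the heterozygote range. Kcnd2 (Kv4.2) was at 0.22 ± 1.26 (log2 fold change, SE). Adjusted p ran from 0.483 to 0.969 over the 3 genes (edgeR).

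Kv2 and Kv3 genes encode delayed rectifiers, which end the action potential. Kcnc1 (Kv3.1), which supports short spikes and fast firing, was at 14.03, 18.7 and 27.2 CPM in heterozygotes against 13.9, 9.33, 4.73 and 8.39 CPM in homozygotes. The groups just failed to touch, at 14.03 and 13.93 CPM (log2 fold change -1.13 ± 0.41, SE; unadjusted p = 0.0205, adjusted p = 0.276, edgeR). With the leukocyte covariate the log2 fold change of Kcnc1 was 0.0113. Kcnb2 (Kv2.2) was at -0.19 ± 0.73 (log2 fold change, SE) and turned sign under other settings. Kcnc2 (Kv3.2) had 51 counts in heterozygote library 2, 26 in homozygote library 1 and fewer elsewhere.

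Kv7 channels carry the M current, which opposes repeated firing. Kcnq5 (Kv7.5) averaged 10.8 ± 3.89 CPM (SD, n = 3) and 5.74 ± 3.05 CPM (SD, n = 4), and homozygote libraries 1 and 4 lay within the heterozygote range (adjusted p = 0.578, edgeR). Kcnq3 (Kv7.3) had 5 counts in all and was below the minimum. Kcnq1 had 0 counts, while Kcnq1ot1 had 12806, at 92.0 to 237 CPM per library and with no shift by genotype beyond the spread (log2 fold change -0.17 ± 0.32, SE; adjusted p = 0.902, edgeR).

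**Figure D3:**
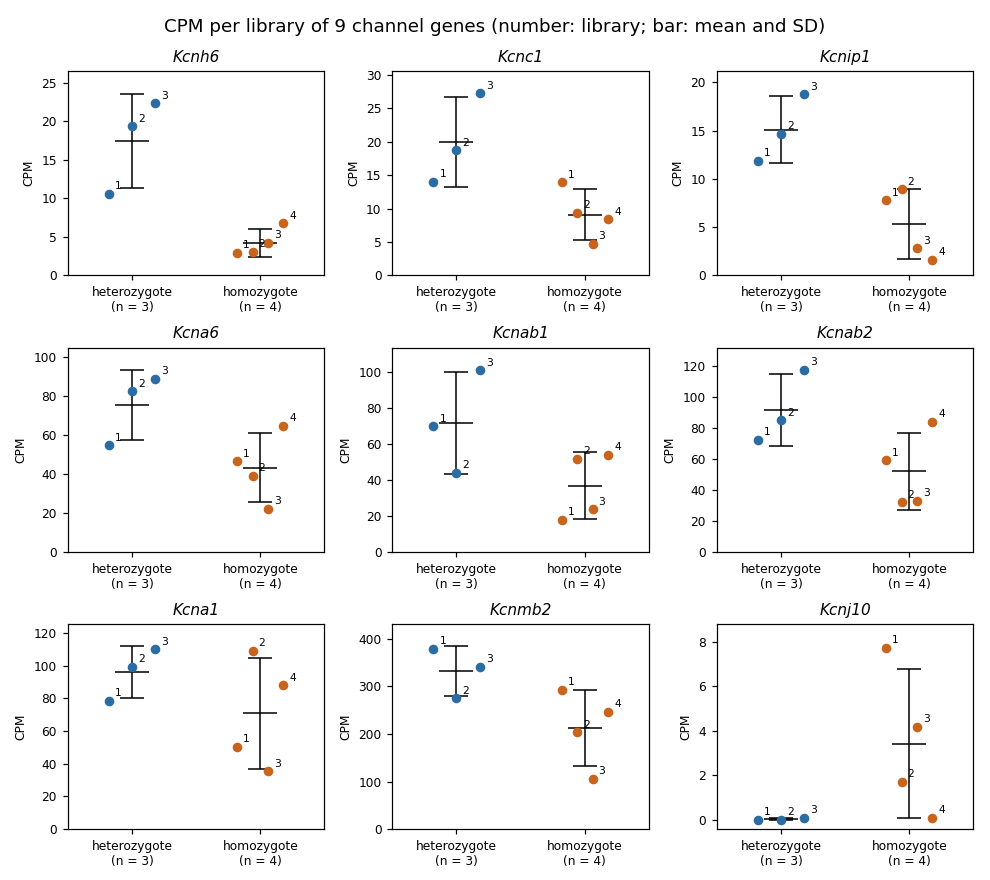
CPM of 9 channel genes in each of the 7 libraries, with the mean and SD of each genotype; each vertical axis is linear and reaches 0, and the small numbers give the library. In Kcnh6, Kcnc1 and Kcnip1 all 4 homozygote points lie below all 3 heterozygote points, and Kcnj10 is near 0 in the heterozygotes and in homozygote library 4.

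Among the HCN genes, Hcn3 was at 16.6, 17.99 and 10.5 CPM in heterozygotes against 13.1, 17.9, 12.3 and 19.3 CPM in homozygotes. The groups overlapped, and the change was 0.0589 ± 0.33 on the log2 scale (SE; adjusted p = 0.968, edgeR). Hcn4 averaged 1.15 ± 0.428 CPM (SD, n = 3) and 1.60 ± 1.06 CPM (SD, n = 4; adjusted p = 0.893, edgeR). Hcn2 had 5 counts over the 7 libraries and is not a member.

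Calcium-activated channels were led in counts by an accessory gene. Kcnmb2, the beta subunit that makes BK channels inactivate, held 22840 counts, the most of any member. It was at 380, 275 and 341 CPM in heterozygotes against 293, 204, 106 and 247 CPM in homozygotes. Homozygote library 1 alone lay within the heterozygote range (log2 fold change -0.64 ± 0.29, SE; adjusted p = 0.401, edgeR). Kcnmb4, another BK beta subunit, was at -0.67 ± 0.40 (log2 fold change, SE; adjusted p = 0.557, edgeR). The BK pore gene Kcnma1 did not follow them in value, at 11.02 ± 2.05 CPM (SD, n = 3) and 11.4 ± 5.65 CPM (SD, n = 4; adjusted p = 0.979, edgeR). Kcnn1 (SK1) was at 0.34 ± 0.55 (log2 fold change, SE). The 3 genes of the Slo2 and Slo3 channels had negative values, as did 37 of the 52 members tested. Kcnu1 (Slo3), best known from sperm, was at 6.24, 7.52 and 9.56 CPM against 1.09, 5.75, 2.32 and 4.15 CPM, without overlap (adjusted p = 0.438, edgeR). Kcnt1 (Slack), a sodium-activated channel, was at -1.11 ± 0.72 (log2 fold change, SE; adjusted p = 0.589, edgeR).

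Of the inward rectifiers, 3 of 4 tested members had a positive log2 fold change, beside 48.3% of all genes tested. Kcnj10 (Kir4.1), best known from glia, had 0, 0 and 1 counts in heterozygotes against 106, 22, 52 and 1 in homozygotes. Homozygote library 4 thus sat with the heterozygotes. The ratio of pooled homozygote to heterozygote levels was 128 (95% exact interval 22.6 to 5074, counting error only). Kcnj10 met the count minimum for members through the homozygotes, so part of this ratio was set by that selection. edgeR gave an adjusted p of 0.149 and DESeq2 one of 0.00454. Without homozygote library 4 edgeR's adjusted p was 0.0784. With 1 heterozygote library left out instead it was 0.278 to 0.392 (edgeR), and limma-voom gave an adjusted p of 0.4545. Without homozygote library 1, 2 or 3, Kcnj10 did not pass the count filter. The authors' deposited table gave it no adjusted p. Neural crest and glial markers had a summed level of 1026 to 1267 CPM in heterozygotes against 678 to 1225 CPM in homozygotes, and 5 of 7 had a negative log2 fold change. Kcnj9 (GIRK3), the direct neighbour of Kcnj10, had 5, 25 and 9 counts against 0, 0, 32 and 0.

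Kcnj12 (Kir2.2) averaged 25.5 ± 8.62 CPM (SD, n = 3) and 19.6 ± 10.5 CPM (SD, n = 4), with overlap (adjusted p = 0.82, edgeR). Kcnj11 (Kir6.2), the pore of ATP-sensitive channels, was at 3.12, 4.24 and 2.61 CPM against 2.48, 3.58, 6.57 and 10.003 CPM (adjusted p = 0.68, edgeR). Kcnj13 (Kir7.1) had 59 counts and an adjusted p of 0.717 (edgeR). Its exons overlap those of Gigyf2. Kcnj8 (Kir6.1), known from pericytes and smooth muscle, had 1, 0 and 8 counts against 30, 3, 63 and 0. Kcnj2 (Kir2.1) had 18 counts in heterozygote library 1, 26 in homozygote library 3 and 0 elsewhere.

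Tandem-pore channels carry background current, and edgeR called 0 of the 4 tested members. Kcnk10 (TREK2) was at 26.3, 12.02 and 23.8 CPM in heterozygotes against 16.9, 27.996, 6.97 and 19.1 CPM in homozygotes. Kcnk5 (TASK2) averaged 9.23 ± 4.26 CPM (SD, n = 3) and 11.5 ± 1.70 CPM (SD, n = 4). Both had overlapping genotypes (adjusted p = 0.907 and 0.841, edgeR). Kcnk3 (TASK1) had 25, 19 and 42 counts against 1, 17, 14 and 2, without overlap in CPM (log2 fold change -1.83 ± 1.01, SE; adjusted p = 0.515, edgeR). Kcnk2 (TREK1) was at -0.26 ± 0.63 (log2 fold change, SE). The untested Kcnk6 (TWIK2) had 0, 2 and 0 counts against 7, 0, 47 and 23.

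Modifier Kv subunits, which form channels only with Kv2 partners, were scarce. Kcns3 and Kcnv1 passed the filter, at 95 and 77 counts in all, with adjusted p of 0.873 and 0.895 (edgeR). Kcns2 had 45 of its 46 counts in heterozygote library 3. Kcng4 had 36 of its 40 counts in homozygote library 1 and the other 4 in homozygote library 3. Kcnrg, at 75 counts, was at -0.34 ± 1.31 (log2 fold change, SE). In Kcns2 and Kcng4 a single library holds most of the counts, so their group sums do not describe the group.

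Levels of different genes can be set side by side only per length, here as CPM per kilobase of exon in GENCODE M21, an annotation that may differ from the one behind the counts. In the heterozygotes Kcnmb2 stood first, at 106 ± 16.9 CPM per kb (SD, n = 3), with its lowest library at 88.0. Kcna1 followed at 20.1 ± 3.37, Kcnab2 at 16.5 ± 4.16 and Kcna6 at 12.7 ± 3.05 CPM per kb. The ranges of Kcna1 and Kcnab2 overlapped, as did those of Kcnab2 and Kcna6. Kcnj12 (9.26), Kcne1l (8.67) and Kcnab1 (8.34 CPM per kb) came next and were not separated. Kcnh6 was at 4.91 ± 1.72 CPM per kb, close to Kcnmb4 (5.30) and Kcnh1 (4.63).

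Summed over the 62 channel members, the level was 1019, 1051 and 1204 CPM in heterozygotes against 782, 758, 492 and 892 CPM in homozygotes. The groups did not overlap, and homozygote library 3 was lowest. Kcnmb2 made up a large share of this sum. Without it the sums were 639, 775 and 864 CPM against 490, 554, 386 and 646 CPM, and homozygote library 4 lay above heterozygote library 1. Beside these values, the leukocyte marker mean was (on the log2 CPM scale) 3.11, 2.93 and -0.42 in heterozygotes against 4.39, 5.06, 7.61 and 5.38 in homozygotes. Sensory neuron markers were also lowest in homozygote library 3. As a percentage of their summed CPM, a scaling chosen after the values were seen, the channel sum was 4.93, 5.48 and 5.39 against 4.20, 4.00, 4.38 and 4.49. On that scale homozygote library 3 no longer stood apart from the other homozygotes. The scaling mostly follows Tubb3 and Stmn2, at 10270 and 4450 of the 20678 CPM in heterozygote library 1. Ntrk3 was at 128 CPM there. Without Kcnmb2 the percentages overlapped between genotypes. Other marker lists differed in level between libraries as well. Nociceptive neuron markers summed to 241 to 401 CPM in heterozygotes against 103 to 187 CPM in homozygotes, without overlap, and 6 of 7 tested had a negative log2 fold change (median -1.59; edgeR called 0, with 4 lower at an unadjusted p below 0.05, and DESeq2 called 4 lower). Skeletal muscle markers summed to 4.50 to 14.8 CPM against 6.49 to 238 CPM, highest in homozygote library 2, and 5 of 5 tested were positive. Mesenchyme markers summed to 63.4 to 255 CPM against 132 to 461 CPM, with 8 of 9 positive. Endothelial markers summed to 4.37 to 6.83 CPM against 6.07 to 46.1 CPM. Of the 6 endothelial genes listed, 2 were tested, Pecam1 and Egfl7, and these were positive. The untested ones did not rise: Tek had 3, 4 and 2 counts in heterozygotes and 0 in every homozygote library. Kdr and Cdh5 had lower mean CPM in homozygotes, and Cldn5 was at 0 throughout. These 3 lists overlapped between genotypes, and edgeR called 0 of their genes, with 1 mesenchyme, 2 muscle and 1 endothelial gene higher at an unadjusted p below 0.05. DESeq2 called 1 endothelial gene higher and none of the other 2 lists. Erythroid markers were highest in heterozygote library 2, at 106 CPM, and at most 9.77 CPM in the homozygotes. The part of these cell types in the channel values was not tested. With the leukocyte covariate the median log2 fold change of the members was -0.14. That covariate did not overlap between genotypes, so the fit cannot separate leukocyte content from genotype. It called 0 of all 14040 genes, Runx3 included.

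**Figure D4:**
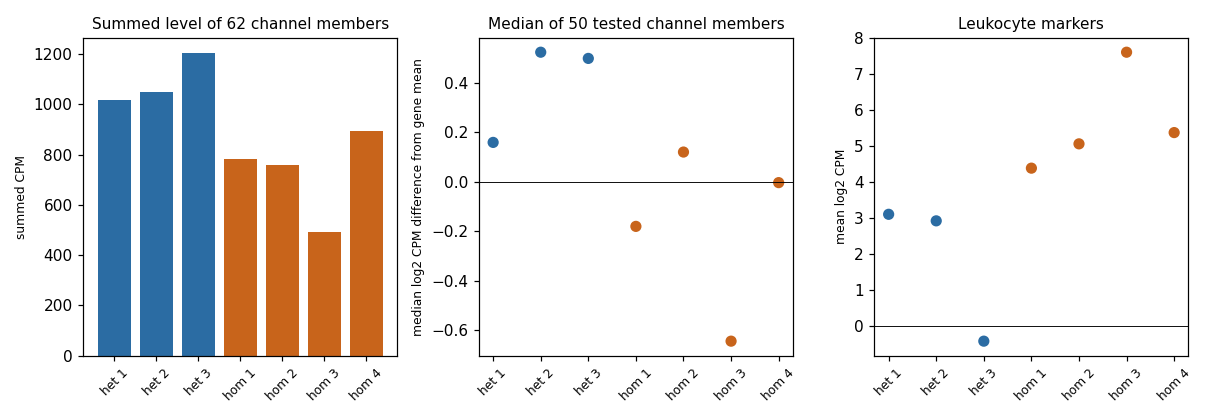
For each library, the summed CPM of the 62 channel members (left), the median difference of the 50 tested channel members from their own mean on the log2 CPM scale (middle), and the mean log2 CPM of the leukocyte markers (right). Homozygote library 3 (hom 3) has the lowest channel values, 492 CPM in the sum, and the highest leukocyte mean, 7.61.

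Genes that act with these channels but carry other symbols were taken from a list of 38, of which 32 were tested. Their log2 fold changes were negative for 22 and positive for 10, with a median of -0.16, where 51.7% of all genes tested were negative. edgeR called 0 of them, with 3 lower and 1 higher at an unadjusted p below 0.05, beside 4.88% and 7.75% of all genes. DESeq2 called 1 lower and 1 higher, beside 1.31% and 3.45% of all genes. Cntnap2 (Caspr2), which clusters Kv1 channels on the axon, was at 48.4, 68.2 and 57.2 CPM in heterozygotes against 21.4, 22.1, 17.3 and 19.3 CPM in homozygotes. No library overlapped, and on the log2 scale the change was -1.53 ± 0.22 (SE; adjusted p = 0.0552, edgeR; adjusted p = 3.08e-07, DESeq2). Lgi4, a secreted glial protein, was at -1.18 ± 0.40 (log2 fold change, SE; adjusted p = 0.24, edgeR).

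No source used here says whether reads were counted by strand. In GENCODE M21, 23 of the 64 members share exon sequence with another annotated gene, among them Kcna6, Kcnab1 and Kcnab2, so their counts may include reads of the partner. Kcnh6, Kcnc1, Kcnip1 and Kcnj10 have no such overlap.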

How the data were processed

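Raw counts per gene were read as the authors deposited them, 1 column per library. The submitters' processing notes name TopHat 1.4.0, HTSeq, DESeq2 1.2.8 and mm9, with no role for any of them. No source used here gives the annotation or strand setting. The log2 fold changes and adjusted p-values deposited by the authors were only quoted, with the sign turned to homozygote over heterozygote.

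Genes were filtered with filterByExpr (minimum count 10, minimum total 15), which left 14040, scaled by TMM and compared with glmQLFit and glmQLFTest in edgeR 4.0.16 (R 4.3.3), two-sided, over all genes at once. A standard error is the size of the log2 change over the root of its F statistic. DESeq2 1.42.0, limma-voom (limma 3.58.1), other scalings, filters, covariates and left-out libraries served as alternatives. The steps were tested on simulated counts. Libraries of the same genotype were checked in pairs, and none were duplicates (chi-square over its degrees of freedom 29.1 to 72).

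The members, lists and rules were chosen with earlier results of these data known. Genes were named if called by edgeR or DESeq2, among the 8 smallest p in either direction, among the 2 most counted of their family, or an HCN gene; the remaining members named with values were chosen after those values were seen. Outside the members, Runx3, Ntrk3 and the partner genes of smallest p were named. Some genes that the rule names are not reported here. A planned search of protein sequences was not run, since no protein table was at hand. Intervals and floors (3 counts) cover counting error only.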

Additional observations from a re-analysis of the deposited data

How the results depend on the processing

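No paired analysis was possible because the labels carry no replicate numbers shared between genotypes. Where edgeR called 7 genes, DESeq2 called 668, the adjusted quasi-dispersion 61, a minimum count of 30 46, no count filter 80, the date covariate 3, the leukocyte covariate 0 and the fit without both libraries numbered 3 12. Leaving out 1 library gave 1 to 27. DESeq2 called 2 members (Kcnh6, Kcnj10) and every other setting 0. Of 665 values of 34 named members over 20 settings, 619 kept their direction and their side of the threshold, 2 passed it (DESeq2) and 44, in 17 members, changed sign. The cause was not tested. The count filter left 12 members untested. Without it all 64 were tested and 0 called. At an unadjusted p below 0.05 (edgeR) there were 12 lower, against 4.7% of all genes, and 6 higher, for which the share of all genes is not given here. Of the 12 members so added, 3 had 0 counts in every heterozygote library and 1 in every homozygote library. The count minimum therefore set part of their direction.

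The log2 fold changes that changed sign were these. With the leukocyte covariate they were Hcn3 -0.22, Kcna1 0.24, Kcnb2 1.64, Kcnc1 0.0113, Kcnd1 0.42, Kcnj11 -0.00338, Kcnj12 0.28, Kcnk10 0.61, Kcnma1 -0.11, Kcnn1 -0.96, Kcns3 1.43, Kcnv1 3.32 and Ntrk3 0.46. Without both libraries numbered 3 they were Hcn3 -0.0411, Kcnb2 0.60, Kcnk10 0.15, Kcnn1 -0.41, Kcnv1 1.82 and Ntrk3 0.00387. In the window of dates they were Kcna1 0.0396, Kcnb2 0.35, Kcnj12 0.0891, Kcnk10 0.18, Kcnn1 -0.36, Kcnq1ot1 0.0673 and Ntrk3 0.15. By limma-voom it was Kcnma1 -0.072, and with the date covariate Kcnma1 -0.16. Over the fits that leave out 1 library, the ranges that crossed 0 were Hcn3 -0.13 to 0.21, Hcn4 -0.0442 to 0.81, Kcnb2 -0.69 to 0.26, Kcnh8 -0.0641 to 0.42, Kcnk10 -0.53 to 0.0421, Kcnk5 -0.0294 to 0.55, Kcnma1 -0.32 to 0.28, Kcnn1 -0.12 to 0.99, Kcnq1ot1 -0.42 to 0.24, Kcnrg -1.62 to 0.17 and Kcnv1 -1.25 to 1.55.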
